A study of Homo sapiens with 6 samples.

Results

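The platelet-derived growth factor (PDGF) genes comprise 4 ligand genes (PDGFA, PDGFB, PDGFC and PDGFD), 2 receptor genes (PDGFRA and PDGFRB) and the receptor-like gene PDGFRL. These 7 genes were chosen by name from the 26286 genes listed in either of the deposited tables. They were followed in HT-1080 cells, an established human fibrosarcoma line, after 48 h with 2 µM palbociclib, 500 nM pimasertib or the vehicle DMSO, with 2 RNA sequencing libraries for each of the 3 groups. Palbociclib inhibits the cyclin-dependent kinases CDK4 and CDK6, which carry cells from G1 into S phase. Pimasertib inhibits the kinases MEK1 and MEK2, which activate ERK. All groups were grown in medium with 10% serum, which itself contains growth factors, and all came from this single line.

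PDGFs are disulphide-linked dimers of ligand chains that bind and dimerise receptor tyrosine kinases at the cell surface. PDGF-A and PDGF-B chains are cut by proprotein convertases inside the cell. PDGF-C and PDGF-D chains carry a CUB domain and are released by proteases such as tissue plasminogen activator outside it. PDGF receptor alpha binds A, B and C chains, whereas receptor beta binds chiefly B and D chains. Receptor activation feeds the RAS-ERK, phosphatidylinositol 3-kinase, phospholipase C gamma and SRC pathways. In connective tissue the ligands are best known as growth factors and attractants for fibroblasts, pericytes and smooth muscle cells, and fusions or amplifications of the family occur in some sarcomas.

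Library totals ranged from 13607490 to 17500655 counts. Of the 7 genes, 5 had enough reads to be tested among 14839 genes, and PDGFD and PDGFRA did not. Levels are given as CPM, read counts scaled to the TMM-adjusted library total, and fold changes are log2 with their standard error (SE) from edgeR's quasi-likelihood test, adjusted over all tested genes with a threshold of 0.05. Nothing in the labels says that replicates were separate cultures, and p-values therefore reflect the spread among these 6 libraries alone, part of which may be technical. In RNA from whole cultures, fewer cells expressing a gene and less RNA per cell cannot be told apart. The fibroblast marker VIM lay between 511 and 1190 CPM in all 6 libraries. Other markers of that list varied: COL6A1 and COL6A2 were at least 51.3 CPM, and THY1, LUM, DCN and FAP at most 0.303 CPM. Epithelial markers summed to between 1.9 and 13.9 CPM over 8 genes. Leukocyte markers summed to between 0.388 and 1.04 CPM over 8 genes, and PECAM1 and ERG, which define endothelium, were at 0 in every library. The endothelial marker TIE1, however, lay between 130 and 340 CPM.

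The upstream bases of PDGFRB and PDGFA are shown because PDGFRB was the receptor that changed and PDGFA differed between the drugs with DMSO between them. The sequences are RefSeq's on build GRCh38.p14, read 5′ to 3′ on the gene's own strand and ending at the base before the annotated start. The first is chr5:150155846-150156095, minus strand, with the CCAAT box in capitals. The second is chr7:520227-520476, minus strand, the first of 4 PDGFA windows in the table, with GC boxes (GGGCGG or its reverse complement) in capitals.
PDGFRB: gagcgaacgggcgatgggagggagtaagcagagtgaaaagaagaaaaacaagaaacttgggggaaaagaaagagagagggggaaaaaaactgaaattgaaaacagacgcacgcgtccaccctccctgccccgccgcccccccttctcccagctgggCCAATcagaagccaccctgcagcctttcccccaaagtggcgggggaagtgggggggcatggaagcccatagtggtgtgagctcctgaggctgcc
PDGFA: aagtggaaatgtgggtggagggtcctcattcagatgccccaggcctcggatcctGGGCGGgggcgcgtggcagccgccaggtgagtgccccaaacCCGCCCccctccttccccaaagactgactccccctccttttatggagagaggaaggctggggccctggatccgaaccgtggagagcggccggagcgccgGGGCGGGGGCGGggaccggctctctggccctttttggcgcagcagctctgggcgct

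Motifs were searched on both strands of each window, which runs from 250 bases before the start to 50 bases after it, and the same search was made in 35116 RefSeq windows of that length. The PDGFRB window held a CCAAT box (CCAAT) from -94 to -90, a motif found in 34.6% of all windows, and 2 GC boxes (GGGCGG, 45.0% of windows), at -118 to -113 and, past the printed bases, at 20 to 25. Positions count back from the start as -1, and the first base of the gene is 1. The PDGFA window was richer in G and C (71.7%, against 59.3% in the PDGFRB window and a median of 58.7% over all windows) and held 4 GC boxes. Within it, 2 EGR sites (GCGNGGGCG, 9.43% of windows) lay at -194 to -186 and -54 to -46, each overlapping a GC box. The PDGFA window also held an E2F site (TTTNGCGC, 1.79% of windows) at -24 to -17 and a CArG box, the recognition element of serum response factor (1.29% of windows), at -120 to -111. TATAAA (11.5% of windows), the AP-1 site TGANTCA (7.71%), the ETS site CCGGAA (17.2%) and CACGTG (7.26%) were searched for as well and were not matched in either window, which says only that these letters are not there. The other PDGFA windows differed: window 2 held an ETS site at -98 to -93, and window 3 a CCAAT box at -137 to -133. Among the PDGFA windows, the E2F site and the CArG box were matched in the first only. RefSeq windows were found for 4 of the 7 genes. PDGFB, PDGFC and PDGFRL had no entry.

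Per kilobase of gene model, PDGFC was the leading PDGF gene in every library and PDGFA the next. The levels in this paragraph are the authors' FPKM values, which can be compared between genes. PDGFC stood at 31.4 and 30.0 FPKM in palbociclib, 36.8 and 33.8 FPKM in pimasertib and 33.8 and 40.7 FPKM in DMSO. PDGFA stood at 8.74 and 7.44 FPKM in palbociclib, 18.1 and 20.8 FPKM in pimasertib and 12.7 and 13.6 FPKM in DMSO. No PDGFA value reached a PDGFC value of its own group.

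The order below these ligands differed between the groups. In DMSO, PDGFRL (0.877 and 1.74 FPKM) and PDGFRB (0.386 and 1.03 FPKM) overlapped, and both lay above PDGFB (0 and 0.114 FPKM). In palbociclib the order was the same, with PDGFRL at 0.81 and 1.53 FPKM, PDGFRB at 0.668 and 0.87 FPKM, again overlapping, and PDGFB at 0 and 0.261 FPKM. Within each DMSO and palbociclib library, PDGFRL was above PDGFRB. In pimasertib PDGFRB came after PDGFA at 8.87 and 9.65 FPKM, PDGFB followed at 4.83 and 5.57 FPKM, and PDGFRL was next at 2.62 and 4.56 FPKM, its higher library close to the lower PDGFB value. PDGFRB stood above 66.5% of the 16390 listed protein-coding genes by mean FPKM in pimasertib, 33.6% in palbociclib and 34.0% in DMSO. PDGFB stood above 54.6% of them in pimasertib, 22.3% in palbociclib and 19.8% in DMSO.

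The makeup of the ligand messages is described here by shares of FPKM, without a test. The 4 ligand genes summed to 40.16 and 37.81 FPKM in palbociclib, 59.71 and 60.12 FPKM in pimasertib and 46.51 and 54.38 FPKM in DMSO. PDGFB made up 8.08% and 9.26% of that sum in pimasertib, against 0% and 0.21% in DMSO, while PDGFC made up 61.59% and 56.16% of the sum in pimasertib, against 72.66% and 74.77% in DMSO. In palbociclib PDGFC made up 78.25% and 79.45% of the sum and PDGFB 0% and 0.69%. The shares of 1 library add to a fixed total, so they do not move independently. The 2 receptor genes summed to 0.72 and 0.88 FPKM in palbociclib, 8.89 and 9.65 FPKM in pimasertib and 0.39 and 1.03 FPKM in DMSO, and PDGFRB supplied between 92.29% and 100% of that sum in every library. PDGFRA's part rests on the reads assigned to it, and most of its span is shared with another gene, FIP1L1.

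**Figure D1:**
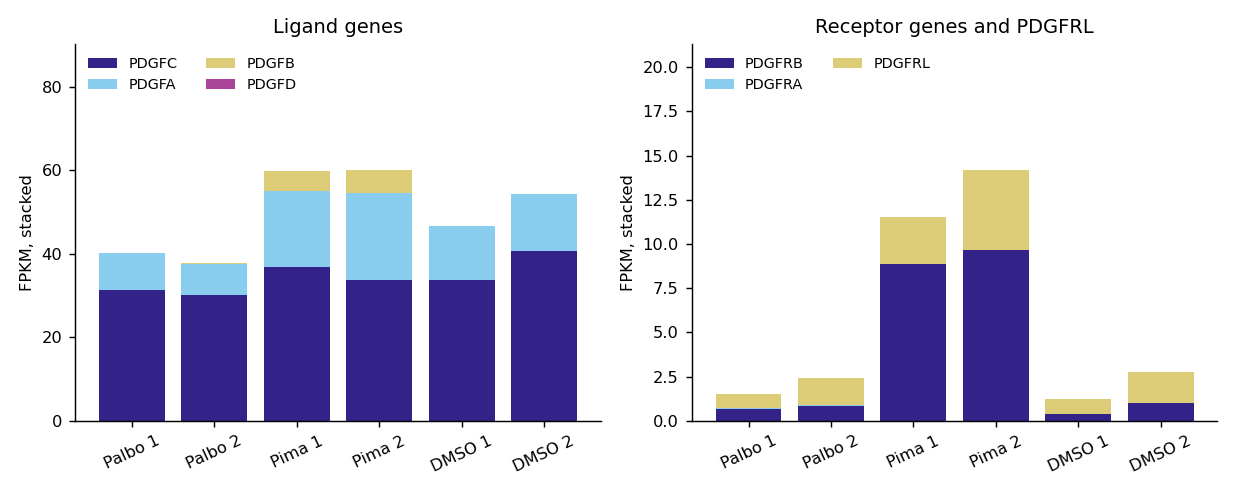
Stacked FPKM of the PDGF ligand genes (left) and of the receptor genes with PDGFRL (right) in each of the 6 libraries, labelled by drug or vehicle and replicate number. PDGFC is the tallest ligand segment in every bar, a PDGFB segment is visible in the pimasertib bars, and PDGFRB stands at 8.87 and 9.65 FPKM there, against at most 1.03 FPKM in DMSO.

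In pimasertib against DMSO 2 PDGF genes rose, PDGFRB by 12.8-fold in mean CPM (52.8 ± 4.43 CPM in pimasertib and 4.13 ± 2.66 CPM in DMSO, SD, n = 2 each) and PDGFB to 18.1 ± 2.25 CPM, against 0.203 ± 0.287 CPM in DMSO (SD, n = 2 each). PDGFA, PDGFC and PDGFRL did not pass the test, although PDGFA and PDGFRL were both higher in each pimasertib library than in each DMSO library. Of the 5 tested genes 2 passed, both higher, beside 11.1% of all tested genes called higher, 11.7% called lower and 22.8% called in either direction. The groups did not overlap, with pimasertib higher, for 4 of the 5 and, with pimasertib lower, for none, beside 31.6% and 32.6% of all tested genes. The median log2 fold change was 1.43 over the 5 and 0.00 over all tested genes. PDGFB reached the filter on low counts only through its pimasertib libraries. Its place in these counts and in the median was thus set by being high there, whereas PDGFD and PDGFRA were left out as too low.

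PDGFB encodes the B chain, the ligand that binds both receptors, and is gene ENSG00000100311 on chromosome 22 (39619364 to 39640756, minus strand, build GRCh37 as in the tables). It had 287 and 305 counts (16.5 and 19.7 CPM) in pimasertib, against 0 and 6 counts (0 and 0.405 CPM) in DMSO. Every pimasertib value was far above both DMSO values, and DMSO replicate 1 held no read. The log2 fold change was 6.49 (SE 0.93, 95% interval 4.43 to 8.55, adjusted p = 0.00105), the 61st highest of the tested genes. The pooled counts gave a ratio of 94 with an exact interval, for counting error only, of 42.9 to 257. With so few DMSO reads the size is loose: it ran from 5.45 without DMSO replicate 1 to 11.19 without DMSO replicate 2, and DESeq2 gave 6.51 with an adjusted p of 0.0636, the highest of 14 alternatives (lowest 3.18e-18). In the authors' deposited table the log2 fold change was 1.78 with an adjusted p of 0.0363, on a scale that is smaller than plain ratios.

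PDGFRB encodes receptor beta, the receptor of pericytes and smooth muscle cells, and is gene ENSG00000113721 on chromosome 5 (149493400 to 149535423, minus strand, GRCh37). Counts were 862 and 865 (49.6 and 55.9 CPM) in pimasertib, against 37 and 89 (2.25 and 6.01 CPM) in DMSO. The pimasertib libraries were close to each other and far above both DMSO libraries, which differed from each other by 1.37 on the log2 scale. The log2 fold change was 3.68 (SE 0.39, 95% interval 2.82 to 4.54, adjusted p = 1.96e-04). It passed under all 14 alternatives, with log2 fold changes of 3.13 without DMSO replicate 1 to 4.54 without DMSO replicate 2. The authors' deposited table gave 3.42 with an adjusted p of 1.37e-19.

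PDGFA encodes the A chain, a ligand of receptor alpha, and is gene ENSG00000197461 on chromosome 7 (536895 to 559933, minus strand, GRCh37). It had 40.9 and 48.5 CPM in pimasertib, against 29.8 and 31.9 CPM in DMSO. The groups did not overlap. The log2 fold change of 0.53 (SE 0.21, 95% interval 0.08 to 0.99) missed the threshold with an adjusted p of 0.0866. It passed with upper-quartile scaling (0.66, adjusted p = 0.0461) and with the stricter filter on low counts (0.66, adjusted p = 0.0398), which each also moved the median of all genes up by 0.12. Its adjusted p ran from 0.0139 to 0.362 over 14 alternatives.

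PDGFC, a ligand of receptor alpha that needs cleavage of its CUB domain, is gene ENSG00000145431 on chromosome 4 (157681606 to 157892546, minus strand, GRCh37). It had 150 and 142 CPM in pimasertib, against 143 and 172 CPM in DMSO. The groups overlapped, and the log2 fold change was -0.11 (SE 0.21, 95% interval -0.57 to 0.35, adjusted p = 0.74). Its sign was positive in 3 alternatives (0.01 to 0.03).

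PDGFRL encodes a secreted protein resembling the ligand-binding part of receptor beta, and is gene ENSG00000104213 on chromosome 8 (17433942 to 17501580, plus strand, GRCh37). It had 85 and 136 counts (4.89 and 8.79 CPM) in pimasertib, against 28 and 50 counts (1.7 and 3.38 CPM) in DMSO. The groups did not overlap, and replicate 2 was the higher one in every group, as it was for PDGFB and PDGFRB. The log2 fold change of 1.43 (SE 0.49, 95% interval 0.35 to 2.51) had an adjusted p of 0.0592, and it passed in 6 of 13 alternatives, among them the fit without DMSO replicate 2 (2.00, adjusted p = 0.016), with adjusted p from 0.00252 to 0.397. In the authors' deposited table it was 1.24 with an adjusted p of 0.0390.

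PDGFRA and PDGFD were near the limit of detection in all groups. PDGFRA encodes receptor alpha and is gene ENSG00000134853 on chromosome 4 (55095264 to 55164414, plus strand, GRCh37). It had 5 and 1 counts in palbociclib, 3 and 0 counts in pimasertib and none in DMSO, where 3 counts over both libraries would be 0.094 CPM and the exact Poisson upper limit is 0.116 CPM. The pooled level was 0.193 CPM in palbociclib (exact Poisson interval 0.0708 to 0.42), and 0.092 CPM in pimasertib (0.0189 to 0.268). Most of PDGFRA's span also lies within that of FIP1L1, a gene on the same strand with 26.0 to 37.4 CPM. The sources used here do not state how reads in a shared span were assigned, so PDGFRA's counts may be too low. PDGFD encodes the D chain, a ligand of receptor beta, and is gene ENSG00000170962 on chromosome 11 (103777914 to 104035107, minus strand, GRCh37). It had 0 and 5 counts in palbociclib (0.161 CPM pooled, exact Poisson interval 0.0522 to 0.375) and none in pimasertib or DMSO. These intervals cover counting error only.

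**Figure D2:**
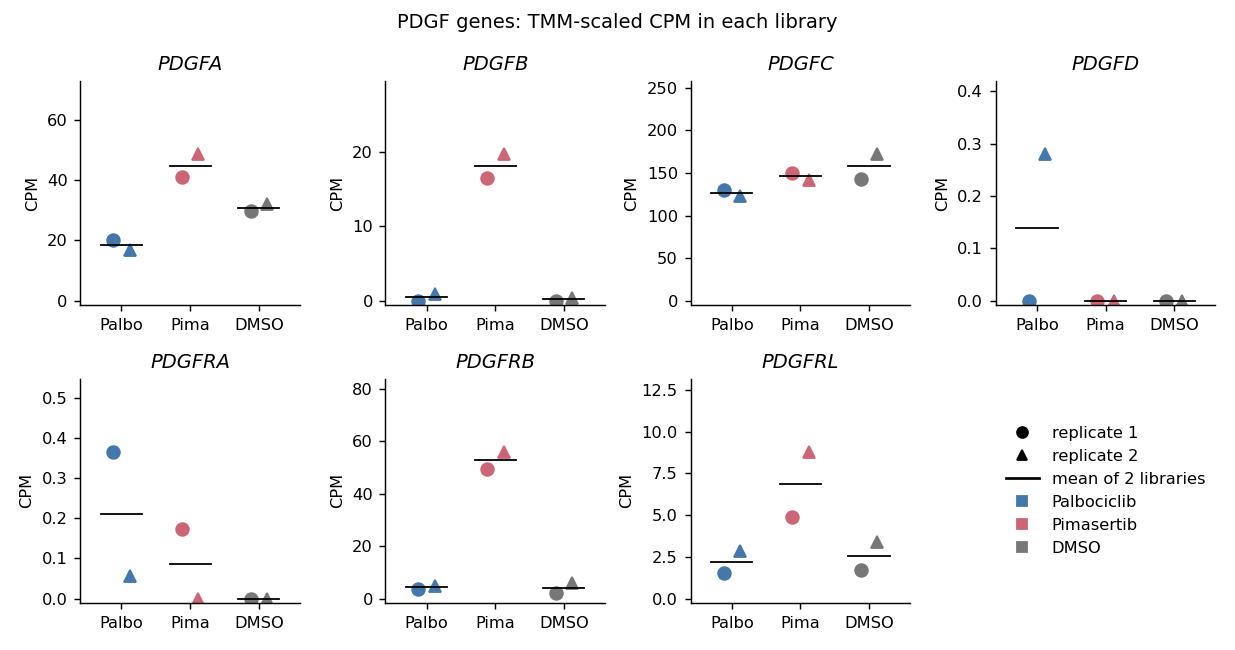
CPM of each PDGF gene (1 panel each, with its own scale from 0) in palbociclib, pimasertib and DMSO. Circles are replicate 1, triangles replicate 2 and bars the mean of 2 libraries. PDGFB and PDGFRB stand apart in pimasertib (16.5 to 19.7 and 49.6 to 55.9 CPM), and PDGFA is lowest in palbociclib and highest in pimasertib.

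In palbociclib against DMSO no PDGF gene passed the test. Among the 5 tested genes, edgeR, DESeq2 and limma-voom each called 0, beside 3.54% of all tested genes in edgeR (1.11% higher and 2.44% lower), and 1 gene, PDGFA, had an unadjusted p under 0.05 (0.00492). PDGFA had 20.1 and 16.8 CPM in palbociclib, against 29.8 and 31.9 CPM in DMSO. Both palbociclib values were below both DMSO values, and the log2 fold change was -0.74 (SE 0.21, 95% interval -1.21 to -0.28, adjusted p = 0.0884). Over 14 alternatives it ran from -0.88 to -0.59 and passed in 1, edgeR with the replicate number as a block (adjusted p = 0.00596). The authors' deposited table gave a log2 fold change of -0.64 with an adjusted p of 0.179.

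The other tested genes did not pass, and their intervals bound what could have been missed. PDGFC had 130 and 123 CPM in palbociclib, against 143 and 172 CPM in DMSO, without overlap (log2 fold change -0.32, SE 0.21, 95% interval -0.78 to 0.14, adjusted p = 0.471). With PDGFA it made 2 of 5 genes whose groups did not overlap with palbociclib lower, beside 23.3% of all tested genes, and none did so with palbociclib higher, beside 23.5%. PDGFRB had 3.81 and 4.87 CPM in palbociclib, within the DMSO values of 2.25 and 6.01 CPM, and its log2 fold change of 0.09 had a 95% interval of -0.77 to 0.95. PDGFRL had 1.54 and 2.85 CPM in palbociclib, against 1.7 and 3.38 CPM in DMSO (-0.19, 95% interval -1.31 to 0.93). The signs of these receptor and PDGFRL values turned when single libraries were left out.

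PDGFB in palbociclib rested on 1 library. It had 0 and 16 counts (0 and 0.895 CPM) in palbociclib, against 0 and 6 counts in DMSO, with a log2 fold change of 1.30 (SE 1.20, 95% interval -1.35 to 3.95, adjusted p = 0.63). Its fold change turned to -4.63 without palbociclib replicate 2. That library also held 9.17 CPM of KRT19 and 2.01 CPM of KRT14, epithelial keratins that were at most 0.403 CPM and 0 CPM in the other 5 libraries. The other epithelial markers did not follow these keratins. In that library CLDN4 was 2.46 CPM, against 3.37 CPM in palbociclib replicate 1. EPCAM was 0.28 CPM there, and CDH1 and GRHL2 were at 0 CPM. The 8 epithelial markers summed to 3.44 and 13.9 CPM in palbociclib, 1.9 and 2.78 CPM in pimasertib and 2.06 and 3.17 CPM in DMSO, with KRT5 and ESRP1 at 0 throughout. The part of these reads in the PDGFB value was not tested.

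Set directly against each other, the drugs differed in PDGFA, PDGFB and PDGFRB, all lower in palbociclib. Each drug was used at a single dose, and the doses differ. PDGFA was 2.43-fold lower in palbociclib (18.4 ± 2.32 CPM) than in pimasertib (44.7 ± 5.41 CPM; SD, n = 2 each), with a log2 fold change of -1.28 (SE 0.21, 95% interval -1.75 to -0.81, adjusted p = 0.00366). DMSO lay between the drugs for this gene, at 30.8 ± 1.48 CPM. PDGFRB was 12.2-fold lower in palbociclib (-3.60, SE 0.38, adjusted p = 2.93e-04), and passed in all 14 alternatives. PDGFB was also lower in palbociclib (-5.19, SE 0.82, 95% interval -7.01 to -3.37, adjusted p = 0.00293).

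These 3 of 5 tested genes stood beside 5.07% of all tested genes called lower in palbociclib, 4.31% called higher and 9.39% called in either direction. For all 5 the groups did not overlap with palbociclib lower, beside 28.8% of tested genes, while 27.7% of tested genes did so with palbociclib higher. PDGFB was among the tested genes only because of its pimasertib libraries, so its part in both counts was set by the filter. PDGFRL (-1.62, SE 0.49, adjusted p = 0.0696) and PDGFC (-0.21, SE 0.21, 95% interval -0.67 to 0.25, adjusted p = 0.568) did not pass. PDGFRL passed in 7 of 13 alternatives, DESeq2 among them (0.0479), with adjusted p from 0.00184 to 0.491. Without pimasertib replicate 2, PDGFA (-1.15, adjusted p = 0.052) and PDGFB (-5.08, adjusted p = 0.0606) missed the threshold, and PDGFB also missed it in DESeq2 (-5.34, adjusted p = 0.196). Over all alternatives the adjusted p ran from 9.78e-06 to 0.052 for PDGFA and from 1.15e-15 to 0.196 for PDGFB. This comparison shares its libraries with the comparisons against DMSO, so it is not a separate observation of the same genes.

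**Figure D3:**
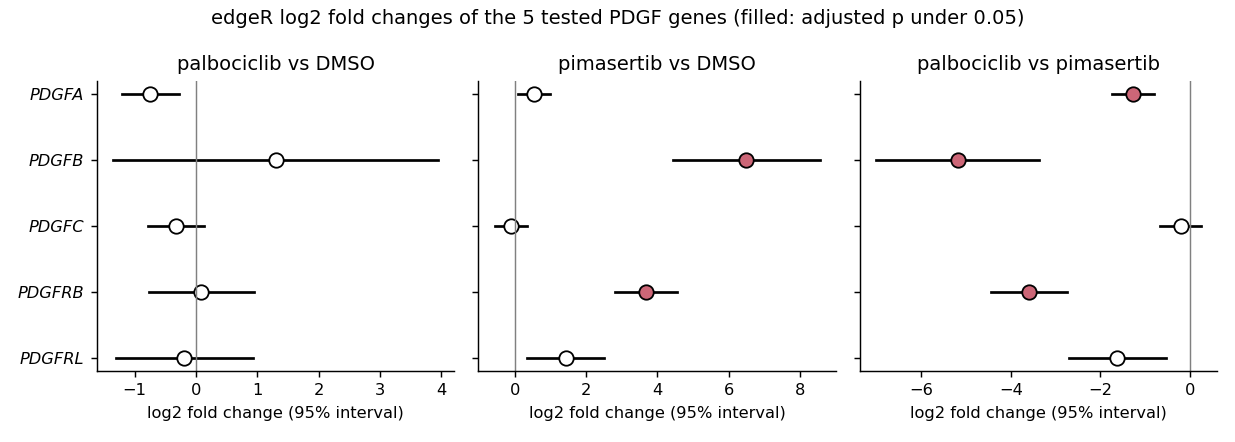
Log2 fold changes of the 5 tested PDGF genes in the 3 comparisons, with 95% intervals from the edgeR fit. Filled points have an adjusted p under 0.05: none against DMSO in palbociclib, PDGFB and PDGFRB in pimasertib, and PDGFA, PDGFB and PDGFRB between the drugs. The horizontal scales differ between panels.

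Of the genes next to PDGF genes, some differed between the groups and others did not pass the test. CSF1R, a related receptor gene that lies 465 bases from PDGFRB on the same strand, had 6.04 and 4.52 CPM in pimasertib, against 3.16 and 3.38 CPM in DMSO, with a log2 fold change of 0.69 (SE 0.36, adjusted p = 0.191). AC005895.3 (149516867 to 149535435) overlaps PDGFRB on the same strand and had 2 counts in pimasertib replicate 1 and none elsewhere. How reads in this shared span were assigned is not stated, so PDGFRB's counts and FPKM may be too low in every group. MTUS1, which overlaps the 3′ end of PDGFRL on the opposite strand, had 36.7 and 30.8 CPM in pimasertib, against 8.19 and 10.2 CPM in DMSO, and rose by 1.88 (SE 0.27, adjusted p = 0.00106). The sources used here do not state whether counting used the strand, so reads of PDGFRL and MTUS1 in their overlap cannot be told apart. SLC7A2, a cationic amino acid transporter gene 5860 bases from PDGFRL, had 76.0 and 60.9 CPM in palbociclib, 56.9 and 67.7 CPM in pimasertib and 131 and 142 CPM in DMSO. It fell by 1.13 on the log2 scale in pimasertib against DMSO (adjusted p = 0.00452, and 0.054 without pimasertib replicate 1). Its mean in palbociclib was 0.501 times that in DMSO (adjusted p = 0.0291, and 0.21 without palbociclib replicate 2, 0.0637 and 0.0654 without either pimasertib library). PRKAR1B, a protein kinase A subunit gene 28901 bases from PDGFA, had 36 and 38.3 CPM in palbociclib, against 21.4 and 18.1 CPM in DMSO. It rose by 0.91 (SE 0.20, adjusted p = 0.0354), a call lost on leaving out any 1 of the 6 libraries (0.0506 to 0.13), and its log2 fold change was 0.61 in pimasertib against DMSO (adjusted p = 0.051). AC147651.3, the divergent transcript gene 95 bases from PDGFA, had 0.979 and 3.36 CPM in pimasertib, against 0.121 and 1.15 CPM in DMSO (1.78, SE 1.18, adjusted p = 0.303). Its RefSeq window, under the name PDGFA-DT, shares 264 bases with the PDGFA window on the other strand.

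Relatives of the PDGF genes fell and rose in pimasertib. Of the VEGF family, dimeric ligands of the same fold, 2 of 4 tested genes fell and none rose in pimasertib against DMSO (median log2 fold change -1.07), beside 11.7% of all tested genes called lower and 11.1% called higher. PGF, placental growth factor, had 11.9 and 13.1 CPM in pimasertib, against 41.5 and 69.6 CPM in DMSO (-2.15, SE 0.27, adjusted p = 5.30e-04). VEGFC, a lymphatic growth factor, fell by 0.98 (SE 0.24, adjusted p = 0.0169), a call lost without DMSO replicate 2 (adjusted p = 0.0943), pimasertib replicate 1 (0.113) or pimasertib replicate 2 (0.0926). Of 3 tested receptors with a split kinase domain, KIT, the stem cell factor receptor, rose, with 11.3 and 10.3 CPM in pimasertib, against 2.25 and 1.69 CPM in DMSO (2.45, SE 0.36, adjusted p = 0.0011). The others did not pass, and FLT3 was at 0 in every library. In palbociclib none of these 7 genes passed.

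Of 9 tested genes that process, bind or present PDGF chains, 3 were higher and 3 lower in pimasertib against DMSO (median log2 fold change 0.09), beside 11.1% and 11.7% of all tested genes. Without either pimasertib library 3 were still called higher and 0 lower, and without DMSO replicate 2 the counts were 3 and 1. SPARC, a matrix protein that binds the B chain, had 7190 and 10400 CPM in pimasertib, against 859 and 1710 CPM in DMSO (2.77, SE 0.41, adjusted p = 0.00116). LRP1, a co-receptor of receptor beta, rose by 2.17 (adjusted p = 0.00187) and THBS1, thrombospondin 1, by 2.10 (adjusted p = 4.94e-04). PLAT, tissue plasminogen activator and the protease that releases the C chain, had 55.4 and 81.8 CPM in pimasertib, against 156 and 384 CPM in DMSO (-1.98, SE 0.42, adjusted p = 0.00872). Its call was lost without pimasertib replicate 1 (adjusted p = 0.0925) or replicate 2 (0.0634). PLAU, urokinase, which releases the D chain, fell by 1.68 (adjusted p = 0.0296), and NRP1, a co-receptor, fell by 1.04 (adjusted p = 0.0174). Both were lost without DMSO replicate 2 (0.185 for PLAU and 0.078 for NRP1) or either pimasertib library (0.143 to 0.181 for PLAU and 0.0867 to 0.131 for NRP1). Between the drugs PLAT was higher in palbociclib, with 613 and 1040 CPM there, against 55.4 and 81.8 CPM in pimasertib (3.59, SE 0.45, adjusted p = 7.68e-04).

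Among adaptors and kinases that act at the receptor, 1 of 21 tested genes passed in pimasertib against DMSO, CRKL, an SH2 adaptor, with a log2 fold change of -0.71 (adjusted p = 0.0416). Its call was lost in 7 of 14 alternatives, among them the fits without DMSO replicate 1 (0.269), palbociclib replicate 2 (0.0601) or either pimasertib library (0.0996 and 0.262). The 21 log2 fold changes ranged from -0.83 to 0.70 with a median of -0.09, and 22.8% of all tested genes passed. STAT3 (0.66, adjusted p = 0.0533) and JAK1 (0.70, adjusted p = 0.0538) lay just outside the threshold, and 2 genes of the list were called higher with RLE or upper-quartile scaling, DESeq2, limma-voom, no filter or the stricter filter. Of 7 genes that attenuate receptor signals, CBLB, a ubiquitin ligase, had 54.2 and 53.3 CPM in pimasertib, against 10.6 and 12.2 CPM in DMSO (2.24, SE 0.21, adjusted p = 9.83e-05). PTPN12, a tyrosine phosphatase that acts on receptor beta, had 47.7 and 44.3 CPM in pimasertib, against 161 and 159 CPM in DMSO (-1.80, SE 0.20, adjusted p = 2.60e-04). CBL fell by 0.94 (adjusted p = 0.0168), which was lost without DMSO replicate 1 (0.0928) or either pimasertib library (0.0852 and 0.135).

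Of 9 tested early genes that PDGF is known to induce, 1 rose and 3 fell in pimasertib against DMSO (median log2 fold change -0.16), beside 11.1% and 11.7% of all tested genes. JUNB, an AP-1 subunit, rose by 1.84 (SE 0.23, adjusted p = 4.63e-04). FOSL1, another AP-1 subunit, had 57.0 and 51.5 CPM in pimasertib, against 407 and 275 CPM in DMSO (-2.65, SE 0.26, adjusted p = 1.24e-04). HAS2, a hyaluronan synthase, fell by 2.71 (adjusted p = 0.00146) and ODC1, which starts polyamine synthesis, fell by 1.94 (adjusted p = 0.00258, and 0.0565 without pimasertib replicate 2). Of 7 transcription factors reported to bind PDGF gene promoters, WT1 fell by 1.47 (adjusted p = 0.00999, and 0.109 without pimasertib replicate 2). KLF5 fell by 1.17 (adjusted p = 0.0169), a call lost without DMSO replicate 1 (0.191) or either pimasertib library (0.0748 and 0.138). SP1, EGR1, ETS1, SRF and KLF4 did not pass, and the median log2 fold change of the 7 was -0.54.

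Few of these genes passed in palbociclib. Over all 12 lists beside the PDGF genes, 1 of 79 tested genes passed in palbociclib against DMSO, beside 3.54% of all tested genes, and 16 had an unadjusted p under 0.05. Summed over the lists, with a gene on more than 1 list counted in each, DESeq2 called 3, limma-voom 2 and edgeR with the replicate number as a block 18. The DESeq2 fit also kept genes below the filter, so its count is not a share of the 79. The edgeR fit without the block called 1 gene. The gene was FOSL1, with 150 and 129 CPM in palbociclib, against 407 and 275 CPM in DMSO (-1.29, adjusted p = 0.0174), and its call was lost without DMSO replicate 1 (0.0645), palbociclib replicate 2 (0.0932), either pimasertib library (0.0525 and 0.0543) or in the fit of only 4 libraries (0.0581). In pimasertib against DMSO 15 of the 79 were higher and 13 lower, beside 11.1% and 11.7% of all tested genes. CNN1 and NOTCH3, both among the higher ones, reached the filter only through their pimasertib libraries.

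Between the drugs 10 of the 79 genes were higher in palbociclib and 11 lower, beside 9.39% of all tested genes called. Those higher in palbociclib were PGF, PLAT, PLAU, PTPN12, ODC1, FOSL1, HAS2, KLF5, WT1 and VIM. Those lower were KIT, SPARC, THBS1, CBLB, JUNB, COL1A1, ACTA2, TAGLN, CNN1, CSPG4 and MCAM. CNN1 was tested only because of its pimasertib libraries. KIT had 0.952 and 0.783 CPM in palbociclib, against 11.3 and 10.3 CPM in pimasertib (-3.64, SE 0.39, adjusted p = 2.92e-04). HAS2 had 5.13 and 8.56 CPM in palbociclib, against 1.09 and 0.905 CPM in pimasertib (2.77, SE 0.41, adjusted p = 0.00216). No alternative that gave a value ended the calls of PGF, PLAT, PTPN12, HAS2, KIT, THBS1, CBLB, ACTA2, TAGLN or CSPG4. Among other settings, COL1A1 missed the threshold in DESeq2 (adjusted p = 0.0605), without a filter on low counts (0.438) and with the replicate block (0.139). PLAU missed it in DESeq2 (adjusted p = 0.0798). VIM was also lost without either palbociclib library (log2 fold changes 0.82 and 0.99). The calls of PLAU, ODC1, FOSL1, KLF5, WT1, VIM, SPARC, JUNB, COL1A1, CNN1 and MCAM were each lost on leaving out at least 1 pimasertib library, with adjusted p of 0.0659 and 0.106 for FOSL1 without replicate 1 or replicate 2, 0.0859 for SPARC without replicate 2 and 0.0713 for CNN1 without replicate 1.

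Of the markers of pericytes and smooth muscle, the cells in which PDGFRB is best known, some rose with PDGFRB in pimasertib and others did not pass. Of 10 tested markers 6 rose and none fell, beside 11.1% of all tested genes called higher, with a median log2 fold change of 1.92. CNN1 and NOTCH3 reached the filter on low counts only through their pimasertib libraries. Their part in this count and median was thus set by being high there. TAGLN, an actin-binding protein, had 91.3 and 59.3 CPM in pimasertib, against 2.12 and 3.85 CPM in DMSO (4.66, SE 0.41, adjusted p = 7.49e-05). ACTA2, smooth muscle actin, had 26.8 and 16.3 CPM in pimasertib, against 5.16 and 3.92 CPM in DMSO (2.24, SE 0.34, adjusted p = 0.0013). CSPG4, the NG2 proteoglycan of pericytes, rose by 2.52 (SE 0.33, adjusted p = 5.76e-04).

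The remaining 3 were MCAM, CNN1 and NOTCH3. MCAM, an adhesion molecule, rose by 1.60 (adjusted p = 0.00508, and 0.062 without pimasertib replicate 2). CNN1, calponin, had 155 counts in pimasertib, against 1 in DMSO, a ratio of 148 with an exact interval of 26.1 to 5870 (adjusted p = 0.00132). NOTCH3 had 28 counts in pimasertib, against none in DMSO, at least 8.89-fold higher against 3 counts over the DMSO libraries (adjusted p = 0.0456, and 0.0877 to 0.223 without any 1 of the DMSO or pimasertib libraries). The other tested markers did not pass. KCNJ8, a potassium channel subunit, had 0.806 and 1.49 CPM in pimasertib, against 0.425 and 0.743 CPM in DMSO, without overlap (0.97, SE 0.79, adjusted p = 0.405). MYH11, smooth muscle myosin, had 0.115 and 1.81 CPM in pimasertib, against 1.7 and 1.62 CPM in DMSO, RGS5 had 1.04 and 0.581 CPM in pimasertib, against 0.971 and 0.811 CPM in DMSO, ABCC9 had 0.863 and 0.775 CPM in pimasertib, against 1.21 and 0.676 CPM in DMSO, and DES, not tested, was at most 0.23 CPM in any library. The 11 markers summed to 204 and 288 CPM in palbociclib, 724 and 832 CPM in pimasertib and 175 and 287 CPM in DMSO, and most of each sum was MCAM. Their part in the PDGFRB value was not tested.

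Fibroblast markers gave 3 of 6 tested genes higher in pimasertib against DMSO (median log2 fold change 1.28), beside 11.1% of all tested genes. COL1A1, a collagen chain, had 281 CPM in each pimasertib library, against 1.82 and 6.69 CPM in DMSO (6.06, SE 0.92, adjusted p = 0.00143). Its call was lost on leaving out any 1 of the 4 DMSO and pimasertib libraries (adjusted p of 0.0574 to 0.366) and without the filter on low counts (0.169). FN1, fibronectin (1.44, adjusted p = 0.0344), and COL6A2 (1.38, adjusted p = 0.0423) were lost without DMSO replicate 1 (0.156 for FN1) or either pimasertib library (0.0786 and 0.235 for FN1), among other settings. VIM was lower in both pimasertib libraries, with 671 and 511 CPM, against 998 and 987 CPM in DMSO (-0.75, SE 0.24, adjusted p = 0.0505). COL6A1 (1.17, adjusted p = 0.0523) and S100A4 (-0.69, adjusted p = 0.669) did not pass either. Other collagen chains on the list stayed low and were not tested. COL1A2 had 0.23 and 0.194 CPM and COL3A1 0 and 0.581 CPM in pimasertib, against 0 CPM in DMSO. LUM, DCN and FAP, which mark tissue fibroblasts, were at 0 in palbociclib and DMSO and at most 0.23 CPM in pimasertib. Of endothelial markers, 3 were tested and none passed. TIE1, an endothelial receptor, nevertheless stood at 262 and 340 CPM in palbociclib, 134 and 187 CPM in pimasertib and 130 and 219 CPM in DMSO, while CDH5, VWF and CLDN5 were at most 0.303 CPM.

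**Figure D4:**
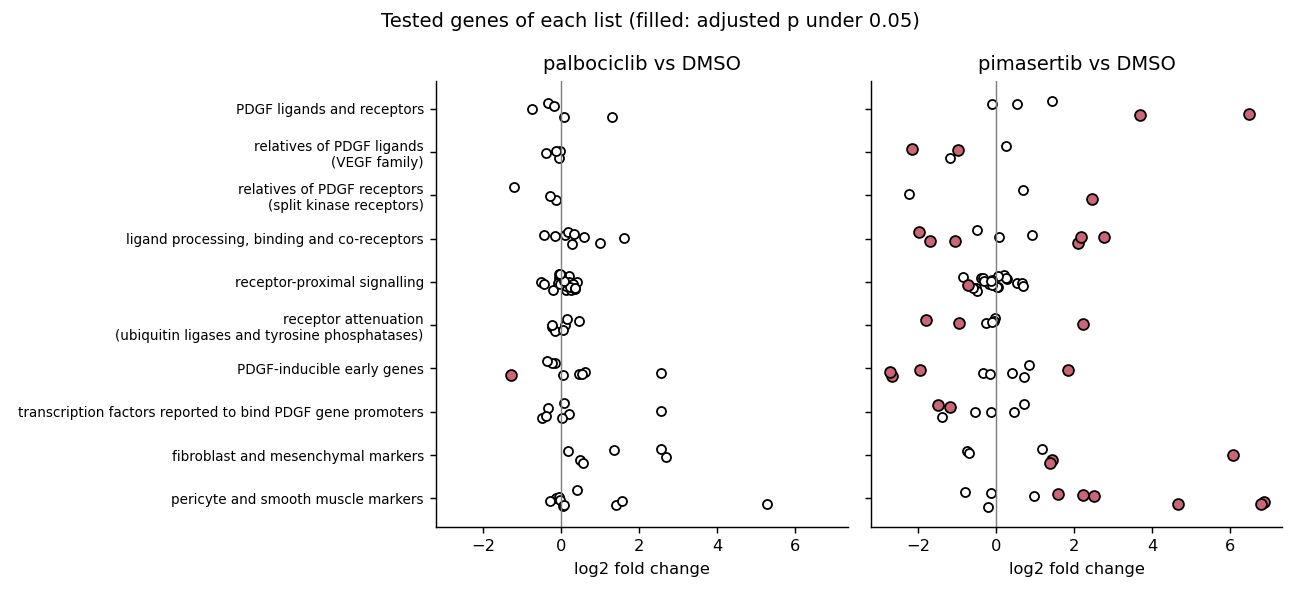
Log2 fold changes of the tested genes of each list (rows), in palbociclib against DMSO (left) and pimasertib against DMSO (right). Filled points have an adjusted p under 0.05 in edgeR, and fitted values of genes without DMSO reads, such as NOTCH3, depend on the prior count. Filled points on both sides of 0 are seen in pimasertib, whereas palbociclib has a single filled point, FOSL1.

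The genes whose pattern was most like that of each PDGF gene were taken by Pearson correlation of log2 CPM over the 6 libraries, among about 9750 abundant protein-coding genes. With 6 libraries in 3 groups such values are high for many genes, so they are given as a description. For PDGFRB these were B4GALT1 (r = 0.998), TGFB2 (0.996) and SLC9A9 (0.995), and 296 genes exceeded 0.95. TGFB2, transforming growth factor beta 2, had 270 and 258 CPM in pimasertib, against 14.1 and 27.2 CPM in DMSO. For PDGFB they were PBXIP1 (0.996), MANBA (0.995) and ITGAV (0.994), with 319 above 0.95. ITGAV, the integrin alpha V chain, had 662 and 651 CPM in pimasertib, against 93.6 and 174 CPM in DMSO.

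PDGFA had a rarer pattern, low in palbociclib and high in pimasertib, with 28 genes above 0.95. Among its nearest were HPSE (0.986) and SLC36A1 (0.979). HPSE, heparanase, had 16.4 and 15.3 CPM in palbociclib, 30.0 and 36.8 CPM in pimasertib and 23.4 and 28.2 CPM in DMSO. PDGFC had FUT11 (0.957), GTF2IRD1 (0.947) and SEC11C (0.947), and 1 gene above 0.95. PDGFRL had TMEM260 (0.995), TAP1 (0.995) and NEU1 (0.994), with 300 above 0.95.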

How the data were processed

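RNA of HT-1080 cells was sequenced by the submitters from random-hexamer cDNA, per the labels' protocols. Per the submitters' processing notes, the tools included HTSeq 0.6.1, STAR 2.5, DESeq2 and CASAVA, and the builds were GRCh37 and hg19. Settings are not given in the sources used here. The authors deposited 1 table per drug with raw read counts per gene and FPKM for its libraries and the DMSO libraries. The deposited FPKM equal counts per kilobase of the gene length, a score in bases, and per library total (100% of values above 0 within 1%). Their comparison of each drug with DMSO gave, per the file headers, log2 fold changes, p-values, adjusted p-values and group means, a normalized signal not used here.

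A gene absent from 1 table had 0 DMSO reads, and its missing counts were set to 0, which was done for PDGFD in pimasertib. No column lacked a sample. Replicate libraries differed by more than sampling noise (chi-square per degree of freedom of 38.6 to 52.2). Mitochondrial genes took 3.21% to 8.76% of counts and were higher in replicate 2 of every group.

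The test was edgeR's (version 4.0.16, R 4.3.3) on the deposited counts: filterByExpr (minimum count 10, minimum total 15), TMM, 1 robust quasi-likelihood fit of 3 groups over 6 libraries, two-sided tests and Benjamini-Hochberg adjustment over 14839 genes. The code was tested on simulated counts. CPM use TMM-scaled totals, and log2 CPM a prior count of 2. Count ratios carry exact 95% intervals, and floors are 3 counts (0.168 to 0.220 CPM per library). PCR copies are not independent molecules, so both cover counting error only. Alternatives were RLE and upper-quartile scaling, DESeq2 1.42.0, limma-voom (limma 3.58.1), no filter, a filter at a mean of 100 normalized counts, only the 4 libraries of a comparison, the replicate number as a block, and leaving out each library.

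The members and the 12 other lists, written from textbook knowledge, were chosen with earlier results of these data known. All 7 members were named. Of each list, the genes past the threshold were named, up to 6 each way, and for each tested member the 3 protein-coding genes with the highest correlation among those with a mean of at least 100 normalized counts. A gene that this rule takes is not reported here. Other genes named beside them, including neighbours and markers, were chosen after their values were seen.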

Additional observations from a re-analysis of the deposited data

How the results depend on the processing

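PDGFRB in pimasertib against DMSO and in palbociclib against pimasertib kept its direction and its call under all 14 alternatives. Palbociclib against DMSO called 526 genes, and 834 in DESeq2, 1097 without a filter on low counts, 325 with only 4 libraries, 2953 with the replicate block and 334 to 763 on leaving out single libraries. The share of these calls that were higher was 31.2%, and 47.2% without a filter. Its count of PDGF genes was 0, and 1 with the replicate block. Pimasertib against DMSO called 3376 genes, 6551 with the replicate block and 1055 to 4084 on leaving out single libraries, and 2 PDGF genes, with 1 in DESeq2, 4 with the replicate block and 2 to 3 on leaving out single libraries. Palbociclib against pimasertib called 1393 genes, 2256 without a filter, 4703 with the replicate block and 456 to 1940 on leaving out single libraries, and 3 PDGF genes, with 1 to 4 on leaving out single libraries. Values of genes that did not pass turned sign in palbociclib against DMSO on leaving out single libraries, where PDGFB ran from -4.63 to 6.01, PDGFRB from -0.46 to 0.95 (with -0.08 without palbociclib replicate 2) and PDGFRL from -0.69 to 0.38 (0.38 without DMSO replicate 2 and 0.18 without palbociclib replicate 1). In pimasertib against DMSO, PDGFC was 0.01 with upper-quartile scaling and with the stricter filter, which each moved the median of all genes by 0.12, and -0.24 to 0.03 on leaving out single libraries. Except for the smaller sets of genes and libraries, the cause was not tested. The stricter filter left no value for PDGFRL, and the fit of only 4 libraries none for PDGFB in palbociclib against DMSO. The labels give replicate numbers without saying what they share. Differences between replicates correlated at 0.40 between DMSO and palbociclib, 0.35 between DMSO and pimasertib and 0.34 between the drugs, with 2 numbers only. With the replicate block PDGFA also passed in palbociclib (adjusted p = 0.00596) and pimasertib (0.0139) against DMSO, and PDGFRL in pimasertib against DMSO (0.00252) and between the drugs (0.00184). Summed over the other lists, the block called 18 in palbociclib against DMSO, where 1 of the 79 genes was called without it. COL1A1 did not pass with the block in pimasertib against DMSO (6.40, adjusted p = 0.0644). Genes with few DMSO reads, PDGFB among them, are limited by depth in the size of their change.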
